A study of Mus musculus with 15 samples.

Results

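The 35 genes described here encode integrin chains, laminin chains, the nidogens and membrane and linker proteins of the hemidesmosome. They were taken by name from 36528 mouse genes, by matching the Entrez identifiers of the files to mouse symbols. All 35 were found, and all 35 passed the filter on low counts that left 18751 genes in the tests.

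PolyA RNA of sorted tumour cells from mouse skin with basal cell carcinoma was sequenced. The libraries comprised 4 labelled control, 8 taken at 6 days of vismodegib and 3 taken at 14 days. The design text calls the mice of the control libraries untreated, their titles carry the tag MCT, which the labels do not spell out, and the age of the animals is not stated. Every library, controls included, comes from mice with K14Cre-ER, with Ptch1fl/fl and p53fl/fl, and with Lgr5GFP. In this model an inducible Cre driven by the promoter of keratin 14, a basal keratinocyte gene, acts on floxed alleles of the Hedgehog receptor Ptch1 and of p53, and GFP is reported from Lgr5. Vismodegib inhibits Smoothened, the membrane protein that Ptch1 restrains. The gate of the sort is not given, and no label ties libraries to animals, so p-values measure the spread between libraries, which may be technical. In bulk RNA, fewer cells of a type and less RNA per cell cannot be told apart.

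Libraries held 27336935 to 256569828 counted reads. The sample identifiers in the labels come in 3 blocks of numbers, called range A, B and C here; the labels give these blocks no meaning. Range A comprised controls 1 to 3 with 5 of the 6-day libraries (1, 3, 4, 6 and 8), range B comprised control 4 with the remaining 3 (2, 5 and 7), and range C was all 3 libraries of 14 days. Range C and 14 days therefore cannot be told apart, while the 6-day comparison can also be made inside A and inside B. Levels differed widely between B and A: in the fit of the 12 control and 6-day libraries, 43.5% of 17843 genes passed the test between the ranges. Among the members 15 of 33 (45.5%) passed, all higher in B. The keratinocyte identity of the cells was visible in 8 basal keratinocyte markers (Krt5, Krt14, Krt15, Trp63, Epcam, Cdh1, Cdh3 and Perp), which summed to 16129.9 to 26063 CPM in controls, 27874 to 43032 at 6 days and 31462 to 44573 at 14 days. CPM are counts relative to the TMM-scaled size of the library. The Hedgehog target Hhip was called lower at both times, at 633 ± 492 (SD, n = 4), 114 ± 68.1 (n = 8) and 91.0 ± 65.4 CPM (n = 3), with edgeR adjusted p of 0.0362 and 0.0394. The Hedgehog targets Ptch1 (edgeR adjusted p = 0.159 and 0.0454) and Gli1 (0.747 and 0.0848) did not pass at 6 days, and Ptch1, the gene floxed in every group, was called lower at 14 days. Of 4 Hedgehog readouts counted, 1 was called lower at 6 days and 3 at 14 days, beside 0.773% and 3.35% of all genes. Their sum was 1157 to 5019 CPM in controls, 169 to 2797 CPM at 6 days and 154 to 475 CPM at 14 days. The 2797 CPM of 6-day library 7 lay inside the span of the controls. Hhip was called in 9 and 8 of 15 fits that left out a library. The lost calls were without controls 2 or 3 or 6-day libraries 1, 2, 3 or 5 at 6 days (up to 0.162), and without controls 2 or 3, 6-day libraries 1 or 3 or any 14-day library at 14 days (up to 0.159).

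Integrins are membrane receptors made of an alpha and a beta chain that bind the extracellular matrix outside the cell and the cytoskeleton within. Laminins are trimers of an alpha, a beta and a gamma chain, and they form the sheet of the basement membrane with type IV collagen, linked by nidogens and perlecan. In skin, basal keratinocytes are anchored to laminin-332, which holds the Lama3 and Lamb3 products, through hemidesmosomes. These hold integrin α6β4, the transmembrane collagen XVII (Col17a1, also BP180), the tetraspanin Cd151 and the plakins plectin (Plec) and BP230 (a product of Dst), which tie the complex to keratin filaments. Integrin chains that pair with Itgb1 or Itgav bind laminins, collagens, fibronectin or, for αvβ6 and αvβ8, latent TGF-beta.

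A RefSeq table of GRCm38.p6 held promoter windows, from 250 bases before to 50 after the start site, for 24 of the 35 members (29 windows). The bases upstream of the annotated start are printed for the 4 members that passed a test below and have such bases in the table: the paralogs Lamb1 and Lamb2, which moved in opposite directions, Col17a1, which rose, and Itgb6, which fell. Each reads 5′ to 3′ on the gene's strand, and capitals mark CpG dinucleotides.
Lamb1: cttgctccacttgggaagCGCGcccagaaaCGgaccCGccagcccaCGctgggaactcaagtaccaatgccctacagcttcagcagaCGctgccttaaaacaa
Lamb2: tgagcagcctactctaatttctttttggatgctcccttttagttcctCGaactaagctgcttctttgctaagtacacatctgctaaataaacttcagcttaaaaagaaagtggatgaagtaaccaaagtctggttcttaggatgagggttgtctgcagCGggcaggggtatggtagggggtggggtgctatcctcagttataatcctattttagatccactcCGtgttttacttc
Col17a1: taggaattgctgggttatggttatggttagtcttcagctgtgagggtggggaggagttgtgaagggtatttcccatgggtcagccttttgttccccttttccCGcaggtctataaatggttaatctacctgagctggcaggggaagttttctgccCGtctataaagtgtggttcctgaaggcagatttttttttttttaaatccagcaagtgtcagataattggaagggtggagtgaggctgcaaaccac
Itgb6: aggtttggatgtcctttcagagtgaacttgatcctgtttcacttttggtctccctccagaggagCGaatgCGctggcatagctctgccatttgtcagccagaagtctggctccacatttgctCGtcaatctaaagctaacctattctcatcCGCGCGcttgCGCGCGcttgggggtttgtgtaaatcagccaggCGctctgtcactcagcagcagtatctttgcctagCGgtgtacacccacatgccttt
The Lamb1 stretch (chr12:31265043-31265145, plus strand, 103 bases) has 5.83 CpG per 100 bases, and the Lamb2 stretch (chr9:108479612-108479846, plus strand, 235 bases) has 1.28. The Col17a1 stretch (chr19:47692043-47692292, minus strand, 250 bases) has 0.8, and that of Itgb6 (chr2:60722604-60722853, minus strand, 250 bases) has 4.4. Over the upstream 250 bases of all 32851 windows the median was 2.4 and the quartiles were 0.8 and 6.4. The stretches of the 2 beta chains lay on opposite sides of that median. Both are shorter than the 250 bases of the median, that of Lamb1 by the most, so the densities cover unlike lengths. Known motifs were searched on both strands of the 300 bases, namely the GLI core CCACCCA, the AP-1 letters TGANTCA and the TEAD letters GGAATG. None of these letters occurs in the windows of Lamb1, Lamb2, Col17a1 or Itgb6. The GLI core was in 6.9% of member windows (Itga2 and Itga4) and in 9.3% of all windows, AP-1 in 6.9% (Itga3 and Itga9) and 7.81%, and TEAD in 13.8% (Itga10, Itgb1, Lamb3 and Nid1) and 14.7%. A match of letters is a description and not a site.

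At 6 days 1 of the 35 members, Itgb6, passed the test against control (edgeR's quasi-likelihood test, Benjamini-Hochberg adjusted p under 0.05 over all genes), and it was lower. That is 2.86% of the members beside 1.26% of all genes tested (0.485% higher, 0.773% lower). At 14 days 6 members passed, Itga6, Lama1, Lamb2, Lamb3 and Col17a1 higher and Lamb1 lower. That is 17.1% of the members beside 6.6% of all genes (3.25% higher, 3.35% lower). Lama1, with no read in any control, passed the filter on low counts only through treated libraries. A lower result was not possible for it, so its direction carries no information. Between 14 and 6 days 2 members passed, Itga6 and Lamb2, both higher at 14 days, which is 5.71% beside 3.89% of all genes (2.14% higher, 1.75% lower). The medians of the members' log2 fold changes were -0.03, -0.07 and 0.03, beside 0.03, -0.02 and -0.06 over all genes, and stayed there with Lama1 put at its lower bound. Differences above 0 were found in 17, 16 and 20 of the 35 members, beside 53.7%, 49.0% and 46.5% of all genes. Called members went in both directions at 14 days, and the median member stayed near the median gene. The 6-day and 14-day comparisons share the 4 control libraries.

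**Figure D1:**
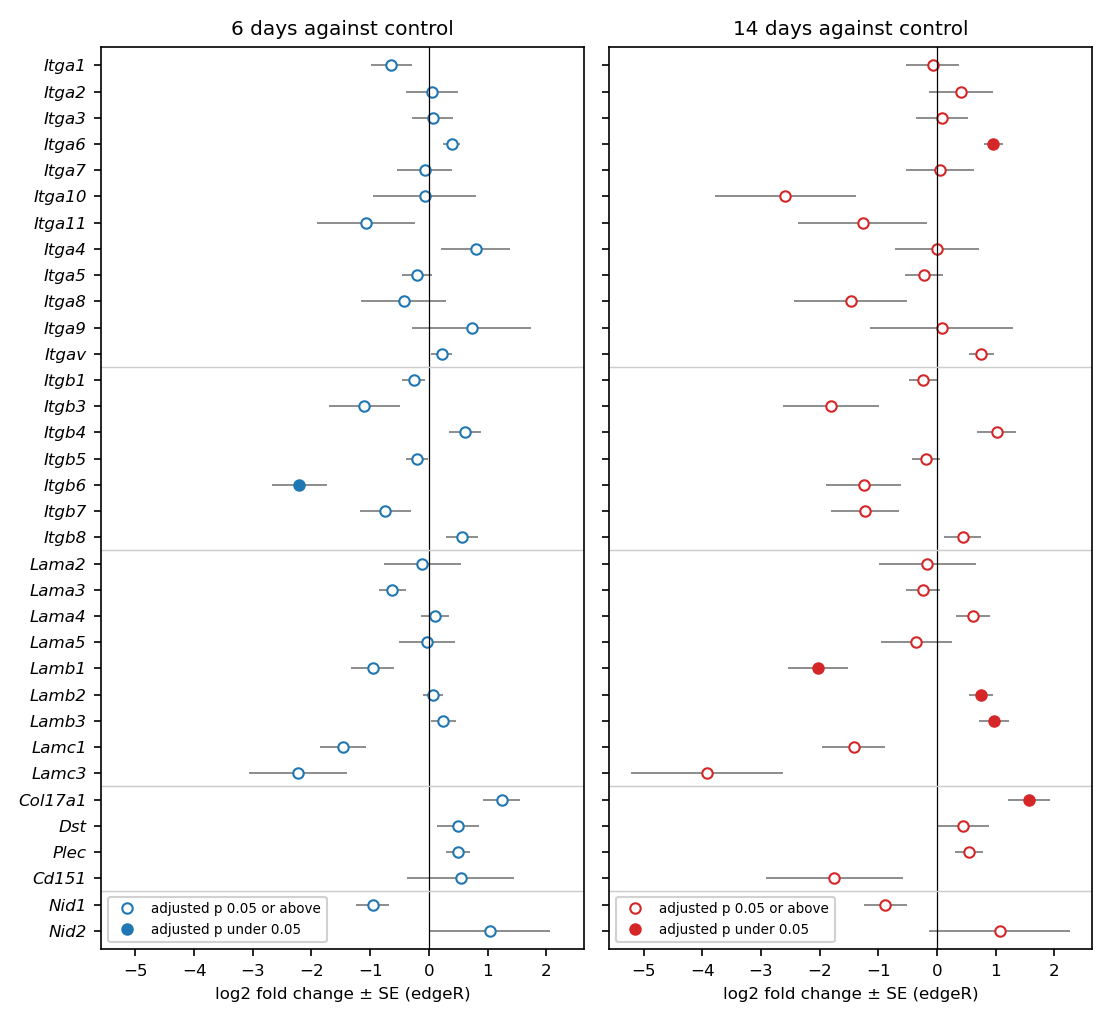
Log2 fold change with its standard error (edgeR) for 34 members, at 6 days (left) and 14 days (right) against control, ordered as alpha integrins, beta integrins, laminins, hemidesmosome genes and nidogens between grey lines. Filled points passed the test: Itgb6 at 6 days, and Itga6, Lamb1, Lamb2, Lamb3 and Col17a1 at 14 days. Lama1, with no read in any control, is not drawn.

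Of the hemidesmosome genes, Col17a1 and Itga6 passed the test at 14 days. Col17a1, a transmembrane collagen of the hemidesmosome (Entrez 12821, chr19:47646341-47692042), measured 1316, 1649, 1118 and 2163 CPM in the 4 controls. At 6 days it ran from 2167 to 6199 CPM with a median of 3479, and at 14 days it was 4867, 4799 and 4271 CPM. All 8 libraries of 6 days and all 3 of 14 days lay above every control, and the 14-day values lay inside the span of the 6-day values. The group means were 1562 ± 457 (SD, n = 4), 3681 ± 1464 (n = 8) and 4646 ± 326 CPM (n = 3). The rise at 14 days was 2.98-fold (log2 1.57, SE 0.36, edgeR adjusted p = 0.0183), and the log2 difference at 6 days was 1.24 (SE 0.31, adjusted p = 0.0626). That difference was 1.01 inside range A and 1.26 inside range B, and with the range as a covariate the adjusted p was 0.00663. The 14-day call was lost without control 3 (adjusted p = 0.0597), 14-day library 1 (0.0656) or 14-day library 2 (0.0535). Col17a1 had the highest level per length of all members in each group, at 226 ± 66.2, 533 ± 212 and 673 ± 47.2 RPKM on the TMM scale. At 6 days it was the 1 member whose libraries did not overlap the controls, beside 2.69% of all genes (1.22% higher, 1.47% lower).

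Itga6, the alpha chain of α6β4 and α6β1 (Entrez 16403, chr2:71786886-71858427), measured 377, 289.9, 296 and 327 CPM in controls. Values at 6 days ran from 357 to 491 CPM with a median of 422, and at 14 days it was 742, 534 and 602 CPM. Of the 6-day libraries 7 of 8 lay above every control, and the 14-day libraries lay above all 12 others. The 14-day rise was 1.94-fold (626 ± 106 against 323 ± 40.0 CPM; log2 0.96, SE 0.16, edgeR adjusted p = 0.005) and passed in all 15 fits that left out a library (highest adjusted p 0.0314). The step from 6 to 14 days was 1.49-fold (log2 0.57, SE 0.14, adjusted p = 0.041). That call was lost in 11 of the 15 fits, without controls 2 or 3, any 6-day library but 1, or 14-day libraries 1 or 3, with adjusted p up to 0.368. At 6 days the log2 difference from control was 0.39 (adjusted p = 0.205; range A 0.42, range B 0.30).

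Itgb4, the beta chain that pairs with Itga6 alone and carries the long tail that binds plectin (Entrez 192897, chr11:115974725-116008412), measured 389.5, 520.1, 336 and 769 CPM in controls. At 6 days it ran from 514 to 1138 CPM with a median of 681, and at 14 days it was 1095, 1105 and 855 CPM. The 14-day libraries lay above every control, and 3 of 8 at 6 days did. The log2 differences were 0.62 at 6 days (SE 0.27, edgeR adjusted p = 0.343; range A 0.53, range B 0.45) and 1.02 at 14 days (SE 0.33, adjusted p = 0.074). Control 4 and the 6-day libraries of range B were the highest of their groups, and Itgb4 was higher in range B than in A by 0.84 (log2, SE 0.14, adjusted p = 0.000282). With range B as a covariate the 14-day difference passed (1.28, adjusted p = 0.000527), as it did without the range B libraries (adjusted p = 0.00429). Reads of Itgb4 overlap on the genome with B230344G16Rik and Galk1, which averaged 28.6 and 35.4 CPM, and how strand was handled is not stated.

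The plakins did not pass. Plec, the linker to keratin filaments, averaged 566 ± 131, 803 ± 180 and 828 ± 113 CPM (log2 0.50 at 6 days, edgeR adjusted p = 0.277, and 0.55 at 14 days, 0.185). Dst averaged 751 ± 388, 1064 ± 481 and 1026 ± 295 CPM (adjusted p = 0.668 and 0.58). With range B as a covariate both passed at 14 days (Plec 0.71, adjusted p = 0.00816; Dst 0.84, adjusted p = 0.0194). The tetraspanin Cd151, which binds α3β1 and α6 integrins, is the member that most follows the identifier ranges. It measured 17.2 to 36.2 CPM in range A, 232 to 276 CPM in range B and 18.2 to 27.8 CPM in range C, a difference between B and A of 3.36 (log2, SE 0.17, adjusted p = 1.89e-08). Its group means carry that split (75.6 ± 104, 110.1 ± 119 and 22.4 ± 4.92 CPM), and neither time passed (adjusted p = 0.924 and 0.394). Itga10, Lama5 and Dst were split the same way, by 2.76, 1.68 and 1.14 on the log2 scale. Itga10, a collagen receptor chain, ran from 0.311 to 13.9 CPM and did not pass at either time (adjusted p = 0.994 and 0.215). The 6-day effect itself differed between the ranges for no member at an adjusted p under 0.05 by edgeR (8 members at an unadjusted p under 0.05), while 10 genes in all passed (0.056%).

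**Figure D2:**
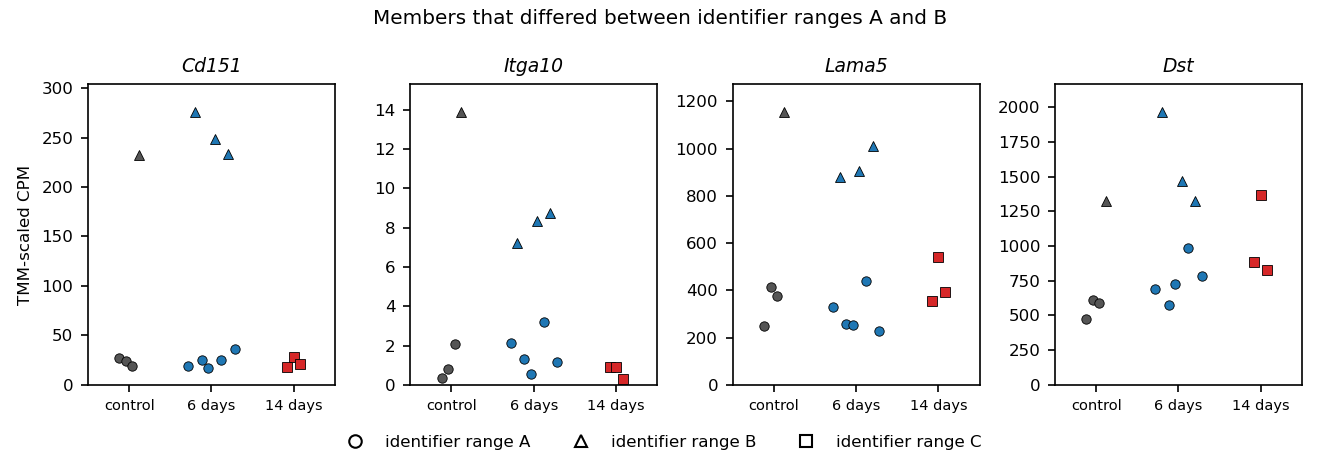
TMM-scaled CPM of Cd151, Itga10, Lama5 and Dst in each library by group; circles, triangles and squares are identifier ranges A, B and C. For Cd151 the 4 triangles sit between 232 and 276 CPM and all other libraries at 36.2 CPM or below.

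Among laminin chains, Lamb3 and Lamb2 rose and Lamb1 fell at 14 days. Lamb3, the beta chain of laminin-332 (Entrez 16780, chr1:193294353-193343878), measured 710.5, 982, 627 and 838 CPM in controls. The 8 libraries of 6 days ran from 561 to 1363 CPM with a median of 954, and at 14 days it was 1509.8, 1669 and 1455 CPM. The 14-day libraries lay above all others, and the 6-day libraries spread to both sides of the controls. The 6-day log2 difference was 0.25 (edgeR adjusted p = 0.756), at 0.48 inside range A and -0.3 inside range B, which has 1 control. The 14-day rise was 1.96-fold (1545 ± 111 against 789 ± 155 CPM; log2 0.97, SE 0.26, edgeR adjusted p = 0.0402). The call was lost without any 1 of the 4 controls, of 6-day libraries 3 and 6 or of the 14-day libraries (9 of 15 fits), with adjusted p of 0.0515 to 0.119. Against 6 days the log2 difference was 0.72 (adjusted p = 0.0832).

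Lama3, the alpha chain of the same trimer, did not follow Lamb3. It averaged 399 ± 132, 259 ± 62.7 and 338 ± 27.2 CPM, with log2 differences of -0.62 at 6 days (edgeR adjusted p = 0.23) and -0.24 at 14 days (0.675). The ratio of Lama3 to Lamb3 per length had medians of 0.176, 0.0907 and 0.0772 in the 3 groups.

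Lamb2, a beta chain of laminin-521 and related trimers (Entrez 16779, chr9:108479847-108490530), measured 173, 249, 245 and 329.6 CPM in controls. Those of 6 days ran from 209.9 to 321 CPM with a median of 267, and at 14 days it was 466, 436 and 360.4 CPM. All 6-day libraries lay inside the span of the controls, and the 14-day libraries lay above all 12 others. The 6-day log2 difference was 0.07 (edgeR adjusted p = 0.952), at 0.27 inside range A and -0.44 inside range B, which has 1 control. The rise against control was 1.69-fold (421 ± 54.3 against 249 ± 63.8 CPM; log2 0.75, SE 0.21, edgeR adjusted p = 0.0411), and against 6 days 1.61-fold (log2 0.69, SE 0.18, adjusted p = 0.0454). The first call was lost in 9 of 15 fits, without controls 1, 2 or 3, 6-day libraries 2, 4 or 5, or any 14-day library (adjusted p up to 0.157). The second was lost in 12 of 15, all but those without control 1, control 4 or 6-day library 6 (up to 0.337).

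Lamb1, the beta chain of laminin-111, laminin-411 and laminin-511 (Entrez 16777, chr12:31265146-31329644), measured 143, 215, 211 and 346 CPM in controls. At 6 days it ran from 53.1 to 226 CPM with a median of 104, and at 14 days it was 32.3, 75.8 and 60.5 CPM. The 14-day libraries lay below every control, and 5 of 8 at 6 days did. The 14-day fall was 4.08-fold (56.2 ± 22.1 against 229 ± 84.9 CPM; log2 -2.03, SE 0.51, edgeR adjusted p = 0.029). It was lost without control 3 (adjusted p = 0.0524), control 4 (0.056) or 14-day library 1 (0.142), 2 (0.0573) or 3 (0.0947). At 6 days the difference was -0.96 (adjusted p = 0.265; range A -1.29, range B -0.92), and with the range as a covariate it passed (adjusted p = 0.0126). Per length Lamb1 was the member of rank 9 in controls and of rank 17 at 14 days (31.6 ± 11.7 and 7.75 ± 3.05 RPKM).

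Lamc1, the gamma chain of laminin-111, laminin-411 and laminin-511 (Entrez 226519, chr1:153218922-153332786), measured 134, 229, 167 and 312 CPM in controls. The 6-day libraries ran from 29.9 to 147 CPM with a median of 58.0, and at 14 days it was 92.7, 72.3 and 70.7 CPM. Of the 6-day libraries 7 of 8 lay below every control, and all 14-day libraries did. The log2 differences were -1.46 at 6 days (SE 0.39, edgeR adjusted p = 0.0873) and -1.42 at 14 days (SE 0.53, adjusted p = 0.119), so neither passed. With the range as a covariate the 6-day difference passed (-1.79, adjusted p = 0.000979). It was -1.99 inside range A and -1.28 inside B, and with range B as a covariate the 14-day difference passed (-1.05, adjusted p = 0.0153). Lamc1 was higher in range B than in A by 1.35 on the log2 scale.

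**Figure D3:**
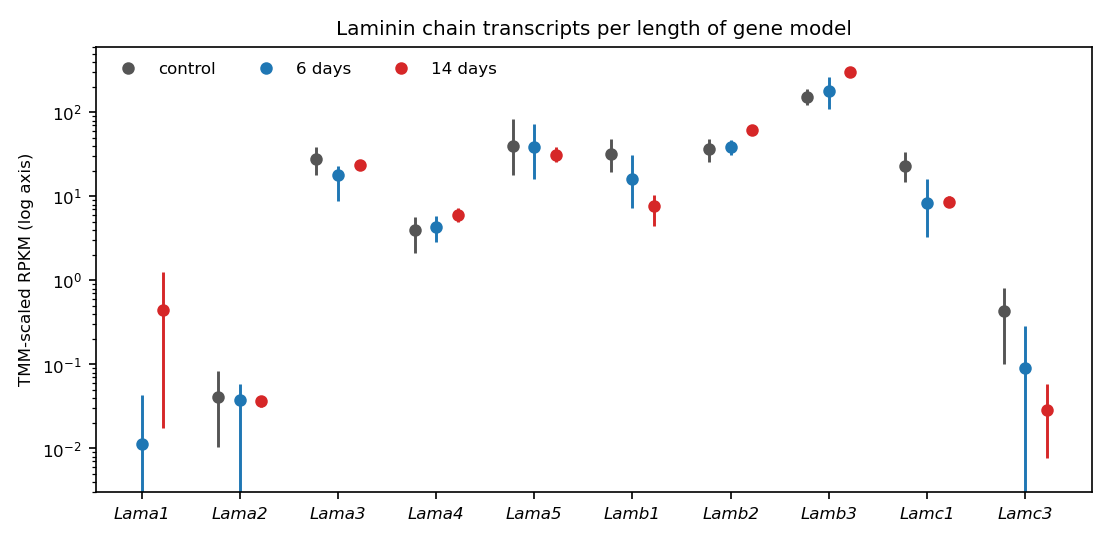
Mean TMM-scaled RPKM of 10 laminin chains in controls, at 6 days and at 14 days, on a log axis. Vertical lines run from the lowest to the highest library. Lines that reach the lower edge include a library at 0 or at a value under that edge. Lama1 has no control point because it was 0 there. Lamb3 is highest in each group, and Lamb1 descends from 31.6 to 16.3 and 7.75 RPKM while Lamb2 goes from 36.7 to 38.5 and 61.9 RPKM.

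Lama1, the alpha chain of laminin-111 (Entrez 16772, chr17:67697127-67822645), had 0 reads in all 4 controls and in 4 of the 8 6-day libraries, with at most 0.503 CPM in the others. At 14 days it was 14.6, 0.202 and 0.74 CPM, from 2131, 26 and 88 reads. The 14-day libraries lay above every control, but library 1 was 19.7-fold above library 3. Against a floor of 3 reads in the control with the highest floor (0.0937 CPM), the 14-day mean of 5.17 CPM was at least 55.2-fold higher, and without library 1 at least 5.03-fold. The call at 14 days (edgeR adjusted p = 0.0267) was lost without that library (0.137), control 2 (0.054) or control 3 (0.0588), and Lama1 was not tested without 6-day library 7. Library 1 of 14 days also had the highest sum of 8 markers of differentiating keratinocytes (Krt1, Krt10, Krtdap, Sbsn, Ivl, Lor, Flg and Dmkn), at 6795 CPM, against 656 and 2293 CPM in the other two and 481 to 2378 CPM in controls; the part of these cells in the Lama1 value was not tested.

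The other laminin chains did not pass. Lamc3 (Entrez 23928, chr2:31887281-31949083) was low, at 4.58, 1.28, 0.719 and 5.81 CPM in controls, 0 to 2.05 CPM at 6 days (median 0.505) and 0.137, 0.0543 and 0.421 CPM at 14 days. Its 14-day libraries lay below every control (log2 -3.92, SE 1.29, edgeR adjusted p = 0.0806). With range B as a covariate it passed (-3.38, adjusted p = 0.0445), as it did by DESeq2, but not without the range B libraries (-3.43, adjusted p = 0.0823). Of the 15 edgeR fits that left out a library it passed in 1, without 6-day library 3 (adjusted p = 0.045). The adjusted p in the others went up to 0.261. Lama5, the alpha chain of laminin-511, averaged 550 ± 410.3, 538 ± 336 and 430.2 ± 98.8 CPM (adjusted p = 0.994 and 0.776), with the range B libraries on top. Lama4, the alpha chain of laminin-411, averaged 28.9 ± 11.4, 31.2 ± 6.43 and 44.1 ± 8.38 CPM (adjusted p = 0.944 and 0.228). Lama2, the muscle and nerve chain, stayed at or below 1.0 CPM in every library. Nid1, which links laminin to type IV collagen (Entrez 18073, chr13:13437602-13512275), measured 14.7, 30.2, 22.7 and 46.4 CPM in controls, 8.83 to 21.1 CPM at 6 days (median 14.2) and 11.9, 19.9 and 14.7 CPM at 14 days. The groups overlapped, and the log2 differences were -0.96 (SE 0.28, adjusted p = 0.121; range A -0.52, range B -1.89) and -0.88 (SE 0.37, adjusted p = 0.163). Nid2 was at 0 to 0.464 CPM, and it overlaps Rtraf, a gene at 36.8 CPM.

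Itgb6, the beta chain of the epithelial integrin αvβ6 (Entrez 16420, chr2:60598292-60722603), was the member that passed at 6 days. It measured 64.5, 55.7, 76.2 and 13.5 CPM in controls. At 6 days it ran from 4.19 to 18.6 CPM with a median of 10.9, and at 14 days it was 37.8, 7.77 and 20.4 CPM. Controls 1 to 3 lay above all 11 treated libraries, while control 4, the control of range B, lay among them. The 6-day fall was 4.62-fold (11.3 ± 5.33 against 52.5 ± 27.3 CPM; log2 -2.21, SE 0.47, edgeR adjusted p = 0.0368). Inside range A it was -2.65, and inside range B, which has 1 control, -0.10 (interaction 2.55 on the log2 scale, unadjusted p = 0.0137, adjusted p = 0.336). The call was lost in 9 of 15 fits, without controls 1, 2 or 3, 6-day libraries 1 to 5 or 14-day library 3 (adjusted p 0.0507 to 0.114). At 14 days the difference was -1.25 (SE 0.64, adjusted p = 0.251).

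Itgav, the alpha chain that pairs with Itgb1, Itgb3, Itgb5, Itgb6 and Itgb8 (Entrez 16410, chr2:83722303-83806917), measured 102, 109.7, 86.1 and 113 CPM in controls. The 8 values of 6 days ran from 85.6 to 162 CPM with a median of 113, and at 14 days it was 172, 190 and 159.8 CPM. The 14-day libraries lay above every control and 2 of 3 lay above every 6-day library. The log2 difference at 14 days was 0.76 (SE 0.22, edgeR adjusted p = 0.0517, and 0.0332 with range B as a covariate). Its other beta chains did not pass at either time. Itgb5, of the vitronectin receptor αvβ5, averaged 284 ± 41.9, 247 ± 62.0 and 251 ± 31.7 CPM, and Itgb8, of αvβ8, 73.9 ± 11.0, 109.5 ± 31.1 and 100.4 ± 46.8 CPM. Itgb3, of αvβ3, stayed at or below 2.68 CPM.

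**Figure D4:**
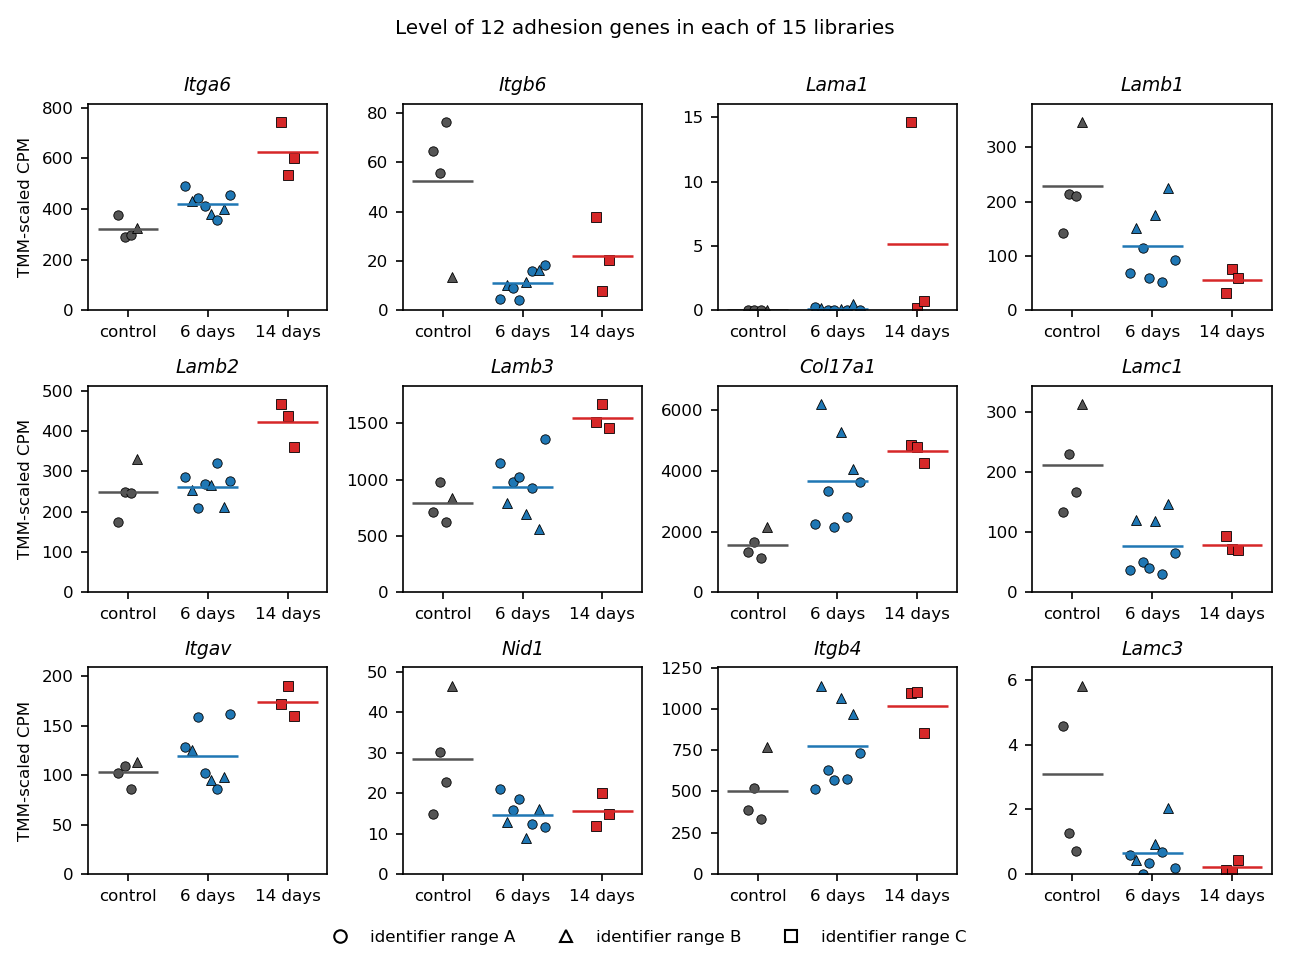
TMM-scaled CPM of the 12 members with called differences or the smallest p-values, 1 point per library, with horizontal lines at group means; circles, triangles and squares are identifier ranges A, B and C. The 14-day points of Itga6, Lamb2 and Lamb3 lie above all others, those of Lamb1 lie below all controls, and control 4 of Itgb6 (13.5 CPM) lies among the treated libraries.

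Itgb1, the common beta chain of the laminin, collagen and fibronectin receptors, averaged 619.9 ± 141, 517 ± 113 and 529 ± 62.8 CPM. Its log2 differences were -0.26 (SE 0.19, edgeR adjusted p = 0.69) and -0.23 (SE 0.24, adjusted p = 0.625). Of its alpha partners Itga3, the laminin-332 receptor chain, averaged 115 ± 52.7, 121 ± 45.8 and 122 ± 73.2 CPM. Itga2, a collagen receptor chain, averaged 14.9 ± 7.46, 15.5 ± 8.26 and 19.8 ± 2.46 CPM, and Itga5, the fibronectin receptor chain, 21.6 ± 5.48, 18.7 ± 5.99 and 18.5 ± 4.12 CPM. None of the 3 passed at either time (adjusted p from 0.703 to 0.987). Itga1, Itga4, Itga7 and Itga8 ran from 0.336 to 23.2 CPM, and Itga9, Itga11, Itgb3 and Itgb7 stayed at or below 2.68 CPM. None of these passed. Itga1, at a mean of 9.08 CPM over all libraries, overlaps on the genome with Pelo, a gene at 17.2 CPM.

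Groups that did not overlap were more common than calls. At 14 days 15 of 35 members (42.9%) did not overlap the controls, 8 higher and 7 lower, beside 23.4% of all genes (11.7% higher, 11.7% lower). The 8 were Itga6, Itgav, Itgb4, Lama1, Lamb2, Lamb3, Col17a1 and Nid2, and the 7 were Itga8, Itga11, Itgb3, Itgb7, Lamb1, Lamc1 and Lamc3. Itga11, Itgb3, Itgb7 and Nid2 are low genes, at 2.68 CPM or less in every library. Lama1, which had no read in any control, could not have been among the lower members. Between 14 and 6 days 3 members (8.57%) did not overlap, Itga6, Lamb2 and Lamb3, all higher, beside 11.7% of all genes (5.42% higher, 6.28% lower).

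The order of the members by level per length changed with time in part of the list. In controls Col17a1 (226 ± 66.2 RPKM) was followed by Lamb3 (153 ± 30.0), Itgb1 (123 ± 28.0), Itgb5 (72.1 ± 10.6), Itgb4 (66.0 ± 25.3) and Itga6 (43.9 ± 5.44 RPKM). Neighbours such as Itgb5 and Itgb4, or Itgb4 and Itga6, differed by less than the larger of their SDs. At 14 days Itgb4 (133 ± 18.6) and Itga6 (85.2 ± 14.5 RPKM) stood in ranks 3 and 5, beside Itgb1 (105 ± 12.5) in rank 4 and Itgb5 (63.7 ± 8.06 RPKM) in rank 6.

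Ratios of 2 members within a library, per length with 0.1 RPKM added, were compared for 18 pairs in 3 comparisons by two-sided exact permutation tests over libraries. None of the 54 tests passed after Benjamini-Hochberg adjustment (smallest adjusted p = 0.109; the smallest exact p possible is 0.00404 for 4 against 8, 0.0571 for 4 against 3 and 0.0121 for 8 against 3). Groups did not overlap in 2, 8 and 3 ratios in the 6-day, 14-day and 14-against-6-day comparisons. Lamb1 to Lamb2 was 0.774, 0.81, 0.808 and 0.984 in controls, 0.157 to 0.996 at 6 days (median 0.404) and 0.0662, 0.164 and 0.159 at 14 days. The 4 controls lay close together, the 6-day libraries spread from the controls' level downward, and the 14-day libraries lay below every control (log2 -2.81, exact permutation p = 0.0571, the smallest possible). Col17a1 to Itgb4 was 3.73, 3.5, 3.67 and 3.11 in controls, 4.19 to 6.01 at 6 days and 4.91, 4.8 and 5.52 at 14 days. All treated libraries lay above all controls (6 days: log2 0.55, exact permutation p = 0.00404, adjusted p = 0.109; range A 0.46, range B 0.79).

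Lama5 to Lamc1, the alpha and gamma chains of laminin-511, had medians of 1.35, 4.63 and 3.61, and its log2 ratio at 6 days differed from control by 1.76 (range A) and 0.97 (range B). Itgav to Itgb1 had medians of 0.0911, 0.129 and 0.182, and Itgb5 to Itgav 6.36, 4.76 and 3.14. For Itgav to Itgb1 the 6-day difference was 0.62 inside A, with none (0.0) inside B; for Itgb5 to Itgav it was -0.36 and -0.42. Itgb4 to Itgb1 had medians of 0.438, 0.979 and 1.26 (6-day differences 0.86 and 0.55), while Itga6 to Itgb4 (0.729, 0.645 and 0.705) and Plec to Dst (1.88, 1.93 and 1.87) stayed near their control medians.

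**Figure D5:**
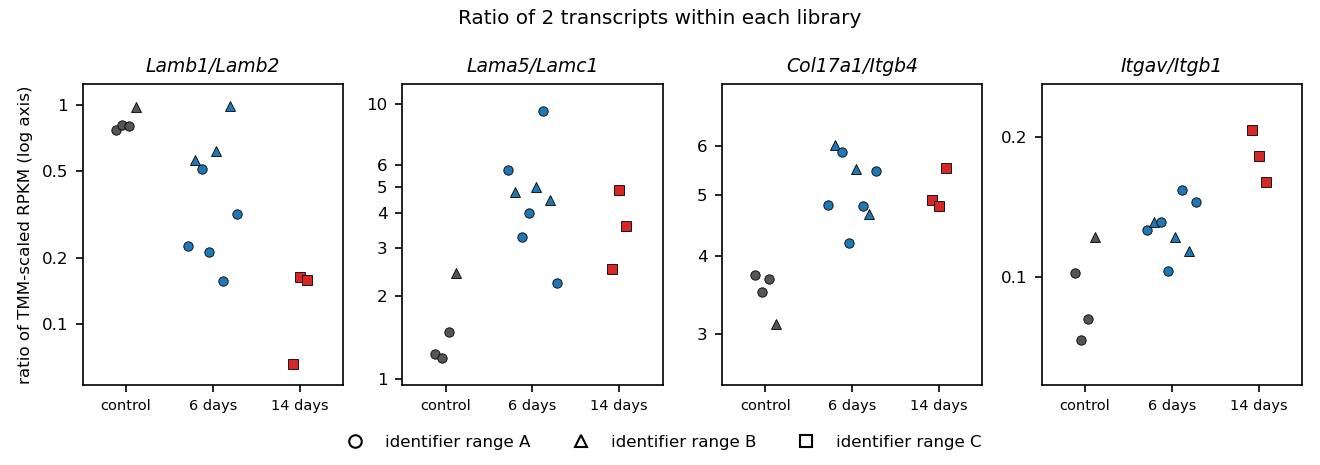
Ratio of 2 members' TMM-scaled RPKM in each library, log axis, for Lamb1 to Lamb2, Lama5 to Lamc1, Col17a1 to Itgb4 and Itgav to Itgb1; circles, triangles and squares are identifier ranges A, B and C. The 14-day ratios of Lamb1 to Lamb2 (0.0662 to 0.164) lie below all 4 controls (0.774 to 0.984).

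Genes that act with the members were counted in 4 lists. Of the integrin adaptors, which link beta tails to actin, 24 of 25 were tested. None passed at 6 days by edgeR (5 at an unadjusted p under 0.05; 1 by DESeq2, 3 by limma-voom), and at 14 days 3 were higher and 1 lower, beside 3.25% and 3.35% of all genes. The scaffold Bcar1 (p130Cas) rose 3.22-fold, from 36.6 ± 11.2 to 118 ± 20.0 CPM (adjusted p = 0.00563, kept in all 15 fits that left out a library). The tensins Tns1 (41.5 ± 42.1 to 197 ± 63.1 CPM, adjusted p = 0.0312) and Tns4 (555 ± 126 to 973 ± 67.2 CPM, adjusted p = 0.032) rose, and kindlin-2 (Fermt2) fell from 48.9 ± 17.3 to 19.7 ± 8.16 CPM (adjusted p = 0.0286). Tns1 and Tns4 each kept the call in 9 of 15 such fits, lost without controls 1, 2 or 3 or any 14-day library (adjusted p up to 0.101 and 0.112), and Fermt2 in 11, lost without control 3, control 4 or 14-day libraries 1 or 3 (up to 0.127). The list's median log2 fold change was -0.07 at 6 days and -0.32 at 14 days.

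Of 21 other basement membrane genes, all tested, 1 was lower at 6 days and 2 at 14 days, and none was higher. Over all genes 1.26% passed at 6 days (0.773% lower) and 6.6% at 14 days (3.35% lower). Col4a1, a chain of type IV collagen, was 565 ± 180.2, 158 ± 88.3 and 109.9 ± 16.3 CPM, a fall of 3.58-fold at 6 days (edgeR adjusted p = 0.0268; log2 in range A -2.19, in B -1.75) and 5.14-fold at 14 days (adjusted p = 0.0147). It was called in 8 of 15 leave-one-out fits at 6 days, lost without controls 2, 3 or 4 or 6-day libraries 1, 2, 3 or 8 (adjusted p up to 0.0692), and in 12 at 14 days, lost without any 14-day library (up to 0.063). Fras1, of the Fraser complex of the epidermal basement membrane, was 53.7 ± 27.1 CPM in controls and 14.2 ± 7.1 CPM at 14 days (adjusted p = 0.0267), lost without control 2 or 14-day libraries 1 or 3 (up to 0.133). The medians of this list were 0.13 and 0.02.

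Of 18 matrix proteases and inhibitors, 16 were tested, and 3 were lower at each time and none higher, beside 0.773% of all genes lower at 6 days and 3.35% at 14 days. The membrane protease Mmp14 was 266 ± 36.4, 129 ± 24.6 and 113 ± 41.8 CPM (edgeR adjusted p = 0.0164 and 0.0106). The first call was lost without control 2 (0.0686), and the second without 14-day libraries 2 or 3 (up to 0.055). The matrix-bound inhibitor Timp3 fell 3.44-fold at 6 days, from 741 ± 116 to 216 ± 103 CPM (adjusted p = 0.00878, kept in all 15 leave-one-out fits), and at 14 days it was 324 ± 78.6 CPM (adjusted p = 0.0726). The urokinase receptor Plaur was 5.91 ± 3.28, 0.867 ± 0.705 and 0.263 ± 0.0711 CPM (adjusted p = 0.03 and 0.00917). It was lost at 6 days without control 2 or 6-day libraries 1, 2, 3, 5 or 8 (adjusted p up to 0.11), and at 14 days without 14-day library 1 (0.0531). Mmp19 was 44.1 ± 14.7 CPM in controls and 12.7 ± 3.96 CPM at 14 days (adjusted p = 0.0145), lost without 14-day libraries 1 or 3 (up to 0.0835). The medians were -0.37 and -0.15.

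Of 14 integrin ligands other than laminins, 12 were tested, and Ccn2, a matricellular protein bound by several integrins, was higher at both times, beside 0.485% and 3.25% of all genes. It averaged 125 ± 35.6, 896 ± 529 and 713 ± 333 CPM, which is 7.18-fold (edgeR adjusted p = 0.0141; log2 in range A 3.12, in B 2.12) and 5.71-fold (adjusted p = 0.0147). The calls were lost without control 2 at 6 days (adjusted p = 0.0502) and without library 3 at 14 days (0.0589). Between 14 and 6 days no gene of the 4 lists passed by edgeR, with 8 adaptors, 5 basement membrane genes, 6 proteases and inhibitors and 2 ligands at an unadjusted p under 0.05. Over the same lists DESeq2 called 4, 3, 4 and 1 genes and limma-voom 9, 4, 6 and 2.

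Markers of other cells that make laminins and type IV collagen were measured beside these results. The 8 fibroblast markers (Col1a1, Col1a2, Col3a1, Pdgfra, Dcn, Lum, Dpt and Col6a3) summed to 13.5 to 33.4 CPM in controls, 4.76 to 24.4 CPM at 6 days and 5.56 to 9.17 CPM at 14 days. Of these, 1 of 6 tested, Col6a3, was lower at 14 days, beside 3.35% of all genes. The 8 endothelial markers summed to 6.6 to 12.5, 4.87 to 8.56 and 4.0 to 5.41 CPM. Egfl7, 1 of 4 tested, was lower at 14 days, beside the same share of all genes. The 8 pericyte and smooth muscle markers summed to 335 to 896, 222 to 742 and 306 to 486 CPM. Kcnj8, 1 of 6 tested, was lower at 14 days, beside the same share. Most of the last sum was Cspg4 (579 ± 219, 404 ± 152 and 343 ± 131 CPM) and Notch3 (36.4 ± 28.8, 23.3 ± 12.5 and 51.4 ± 40.8 CPM), while Rgs5 was at 0 in controls and Pdgfrb, Myh11 and Des averaged 0.59, 0.41 and 0.0028 CPM there. No marker of these 3 lists was at 0 in all libraries, and 2, 5 and 2 of them stayed below 1 CPM in every library. The sum of the 8 basal keratinocyte markers was at least 27874 CPM in every treated library and at most 26063 CPM in controls. Among them Krt15, a keratin of basal and hair follicle cells, was higher at both times (3.67-fold, edgeR adjusted p = 0.0166, and 3.06-fold, adjusted p = 0.0223). Cdh1, the epithelial cadherin, was higher at 14 days (2.26-fold, adjusted p = 0.0241). Over all genes 0.485% were called higher at 6 days and 3.25% at 14 days. Krt15 was lost at both times without controls 2 or 3 and at 14 days also without 14-day libraries 2 or 3 (up to 0.0756), and Cdh1 without controls 2 or 3 or any 14-day library (up to 0.0964). Krt15 averaged 3866, 14179 and 11849 CPM in the 3 groups and is a large part of the sum. The rest of the list did not pass against control, apart from Cdh1 at 14 days. Krt5, Krt14 and Trp63 were higher at both times, and Epcam was lower at both (log2 -0.27 and -0.36). Perp was lower at 6 days (-0.13) and Cdh3 at 14 days (-0.11), each with the other sign at the other time. The sum, Krt15 and Cdh1 were higher at 14 days, as were Col17a1, Itga6 and Lamb3. The part of these markers in those values was not tested. The sums of the fibroblast and endothelial lists lay below every control at 14 days, as did Lamb1, Lamc1 and Lamc3; their part in those values was not tested. Myeloid markers summed to 4.04 to 14.3 CPM in controls, 1.69 to 9.64 CPM at 6 days and 24.3 to 36.9 CPM at 14 days. At 14 days 3 of these 8 were called higher against control, beside 3.25% of all genes. The part of myeloid cells in the 14-day values was not tested. A list of 6 leukocyte integrins outside the members (Itgal, Itgam, Itgax, Itgb2, Itgae and Itgad) summed to 0.861 to 8.37 CPM in controls (median 1.51, with the 8.37 in control 3). They summed to 0.581 to 2.31 CPM at 6 days and 4.11 to 6.5 CPM at 14 days. Of the 5 tested, 1 was called higher at 14 days against control, beside 3.25% of all genes. Platelet markers summed to 6.71 to 45.5 CPM, melanocyte markers to 34.6 to 862 CPM, Schwann cell markers to 17.5 to 83.8 CPM, skeletal muscle markers to at most 5.18 CPM and lymphoid markers to at most 4.28 CPM.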

How the data were processed

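Each library has a deposited table of counts and RPKM per Entrez gene. Per the file headers, the authors' counts are reads that aligned uniquely to a gene model, and the deposited RPKM are counts adjusted for gene length and a library size factor. Per the submitters' processing notes, reads were aligned with GSNAP to GRCm38; the sources used here do not give versions, annotation or strand handling. None of 105 library pairs agreed within sampling noise (chi-square over its degrees of freedom at least 52.82). Of 36528 identifiers 31049 matched the RefSeq table of GRCm38.p6, the source of symbols, coordinates and promoters.

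Groups follow the treatment label, and replicate numbers follow accession order. The test of the counts was edgeR's quasi-likelihood F test (version 4.0.16, R 4.3.3), with a filterByExpr filter and TMM scaling, in 1 fit of all 15 libraries with 12 residual degrees of freedom, and Benjamini-Hochberg adjustment over 18751 genes at 0.05. Levels between samples are TMM-scaled CPM, and levels between genes are RPKM rescaled to the same library sizes. Ratios used a pseudocount of 0.1 RPKM and exact permutation tests (Python 3.11.15). A floor of 3 counts equals at most 0.11 CPM and covers counting error only. The model step was run on simulated data that held no difference between identifier ranges, and the outcome is not given here. Alternatives were RLE and upper-quartile factors, other filters, DESeq2 1.42.0, limma-voom (limma 3.58.1), fits of 2 groups, the identifier ranges, each library left out, and other pseudocounts for ratios; range B as a covariate for 14 days and range B left out were chosen after seeing the data.

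The members and lists were chosen with earlier results of these data known. Values in every library are given for members called in any comparison and, up to 12, for those with the smallest p. From each list up to 4 called genes with the smallest adjusted p were named.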

Additional observations from a re-analysis of the deposited data

Results flagged for a closer look

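Of 70 groups of 4 or 8 libraries checked, 4 held a library far from the others of its group by Dixon's test, which chance alone gives in about 1 in 20 groups. Cd151 was 232 CPM in control 4 against 19.1 to 26.7 CPM in the other controls, and it is the split between identifier ranges described above. Lama3 was 129 CPM in 6-day library 6 against 217 to 336 CPM in the other 6-day libraries. Lama2 was 0.0277 CPM in 6-day library 8 against 0.35 to 0.693 CPM. Itga9 was 0.0 CPM in 6-day library 6 against 0.429 to 2.14 CPM.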

How the results depend on the processing

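No called difference changed direction under any alternative that was run. At 6 days, where edgeR called 1 member, DESeq2 called 4, limma-voom with sample weights 5, the fit with the range as a covariate 4 and the fit within range A 3; leaving out each library gave 0 to 2. At 14 days, where 6 were called, DESeq2 called 10, limma-voom 13, a fit of only the 2 groups compared 2 and range B as a covariate 12, while leaving out range B gave 9; leaving out each library gave 1 to 7. Between 14 and 6 days, where 2 were called, upper-quartile factors gave 1, no filter on low counts 0, DESeq2 4, limma-voom 8 and range B as a covariate 5; leaving out each library gave 0 to 3. The count at 6 days was 0 by edgeR without controls 2 or 3, 6-day libraries 1 to 5 or 14-day library 3 (8 to 12 members at an unadjusted p under 0.05) and 2 without 6-day library 7. At 14 days it was 1 without control 3 or 14-day library 1, 2 without 14-day library 2, and 3 without control 2 or 14-day library 3. Between the times it was 1 without 6-day libraries 1 or 6, and 0 without controls 2 or 3, 6-day libraries 2, 3, 4, 5, 7 or 8, or 14-day libraries 1 or 3; these and the fit with no filter had 4 to 8 members at an unadjusted p under 0.05. At 14 days the share of all genes called moved with these counts: it was 6.6%, 13.6% by DESeq2, 22.4% by limma-voom, 1.96% with 2 groups and 17.0% with range B as a covariate. For the other alternatives and comparisons that share is not given here. Their member counts are therefore not set against all genes and are no result about the members. Under the pseudocounts of 0.01 and 1.0 and with each library left out, no partner ratio passed the adjusted threshold. A covariate for all 3 ranges could not be fitted for 14 days, because range C is that group. No paired analysis was possible because the labels give no replicate numbers. Depth limited the genes at or below 1 CPM, where the range A libraries hold few reads.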
